A study of Mus musculus with 23 samples.

Results

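The 10 sulfotransferase genes Sult2a1, Sult2a3, Sult2a8, Sult3a1, Sult5a1, Sult1a1, Sult1b1, Sult1c2, Sult1d1 and Sult1e1 were followed in livers of 15 female mice. They were found by gene symbol among the 27179 genes of the count table, which holds 21 genes whose symbol starts with Sult. The mice fall into 3 groups. Ctrl mice (n = 6) carried Alb-Cre, floxed Trp53 on both chromosomes, 1 floxed and 1 wild-type Icmt allele, and wild-type Braf. ABpIF/+ mice (n = 6) carried the same alleles plus 1 BrafCA allele, which gives BRAF V600E after recombination. ABpIF/F mice (n = 3) carried these and had both Icmt alleles floxed. Alb-Cre is Cre under the albumin promoter, which is active in hepatocytes. Recombination by cell type was not measured here, and some cells of the tissue may keep their floxed alleles. The floxed Trp53 alleles are shared by all groups, Ctrl included. The sample labels write BRAF wt for Ctrl and BRAF +/+ for the ABpIF/+ and ABpIF/F mice. The description of the series gives the ABpIF/+ and ABpIF/F mice the BrafCA allele, and this description was followed. The labels give no ages. The RNA came from liver pieces without visible tumor.

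Cytosolic sulfotransferases move a sulfate group from the donor PAPS onto small molecules, which makes them more soluble in water and usually ends their activity as hormones. The SULT2A enzymes act on hydroxysteroids and bile acids, SULT1E1 acts on estrogens, and the other SULT1 enzymes act mainly on phenols and catecholamines. In mouse liver several of these genes differ between the sexes, Sult2a1 and Sult3a1 being known as higher in females, and Sult1e1 is known as a gene with little expression in healthy adult liver.

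Every mouse had between 24742910 and 32262649 counts on genes. Levels of 1 gene are given in CPM, its read counts scaled to the size of each library, as mean ± SD over mice. A gene was called higher or lower where it changed 2-fold or more in either direction with an adjusted p under 0.01 (edgeR quasi-likelihood test, Benjamini-Hochberg over 27179 genes). Icmt itself lay between 27.8 and 34.7 CPM in Ctrl, between 27.8 and 37.4 CPM in ABpIF/+ and between 15.2 and 16.6 CPM in ABpIF/F. Trp53 RNA was at 5.35 CPM in Ctrl, 13.9 CPM in ABpIF/+ (log2 fold change 1.37 ± 0.14, edgeR adjusted p = 1.58e-07) and 10.7 CPM in ABpIF/F (0.99 ± 0.17, edgeR adjusted p = 0.000166, just under 2-fold and so not called). Mouse malpa387 of the Ctrl group and all 3 ABpIF/F mice stood apart on a score over 14 clock genes (−10.4 to −5.78, against 1.94 to 3.86 in the other mice), and 5 of the 6 Ctrl mice carry another strain label than all remaining mice, among them the Ctrl mouse BG3. Values of these mice are given where a result rests on them.

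Between ABpIF/+ and Ctrl, 6 of the 10 sulfotransferase genes were called, 4 lower (Sult2a1, Sult2a3, Sult2a8, Sult5a1) and 2 higher (Sult1a1, Sult1e1), while 10.0% of all genes were called in this comparison (4.69% higher and 5.35% lower). Between ABpIF/F and Ctrl, 6 of 10 were called as well, 5 lower (Sult2a1, Sult2a3, Sult3a1, Sult5a1, Sult1b1) and 1 higher (Sult1e1), against 6.93% of all genes (4.55% higher and 2.38% lower). Between ABpIF/+ and ABpIF/F, 3 of 10 were called, all higher in ABpIF/+ (Sult1a1, Sult1d1, Sult3a1), against 7.24% of all genes (1.76% higher and 5.49% lower). The first 2 of these comparisons share the Ctrl mice. Among the 12316 genes that average 1 CPM or more, the called shares were 17.6%, 12.6% and 12.2% in the same order. The median log2 fold change of the 10 genes was −0.98, −2.50 and 0.97, beside 0.017, −0.001 and 0.038 for those 12316 genes. The median of the 10 genes in ABpIF/F against Ctrl is the same with Sult2a3 set to its bound from 3 counts. The 10 genes were chosen with earlier results of these data known, so these shares and medians can follow from the choice. Of the 11 other Sult genes, 3, 2 and 0 were called in the 3 comparisons.

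**Figure D1:**
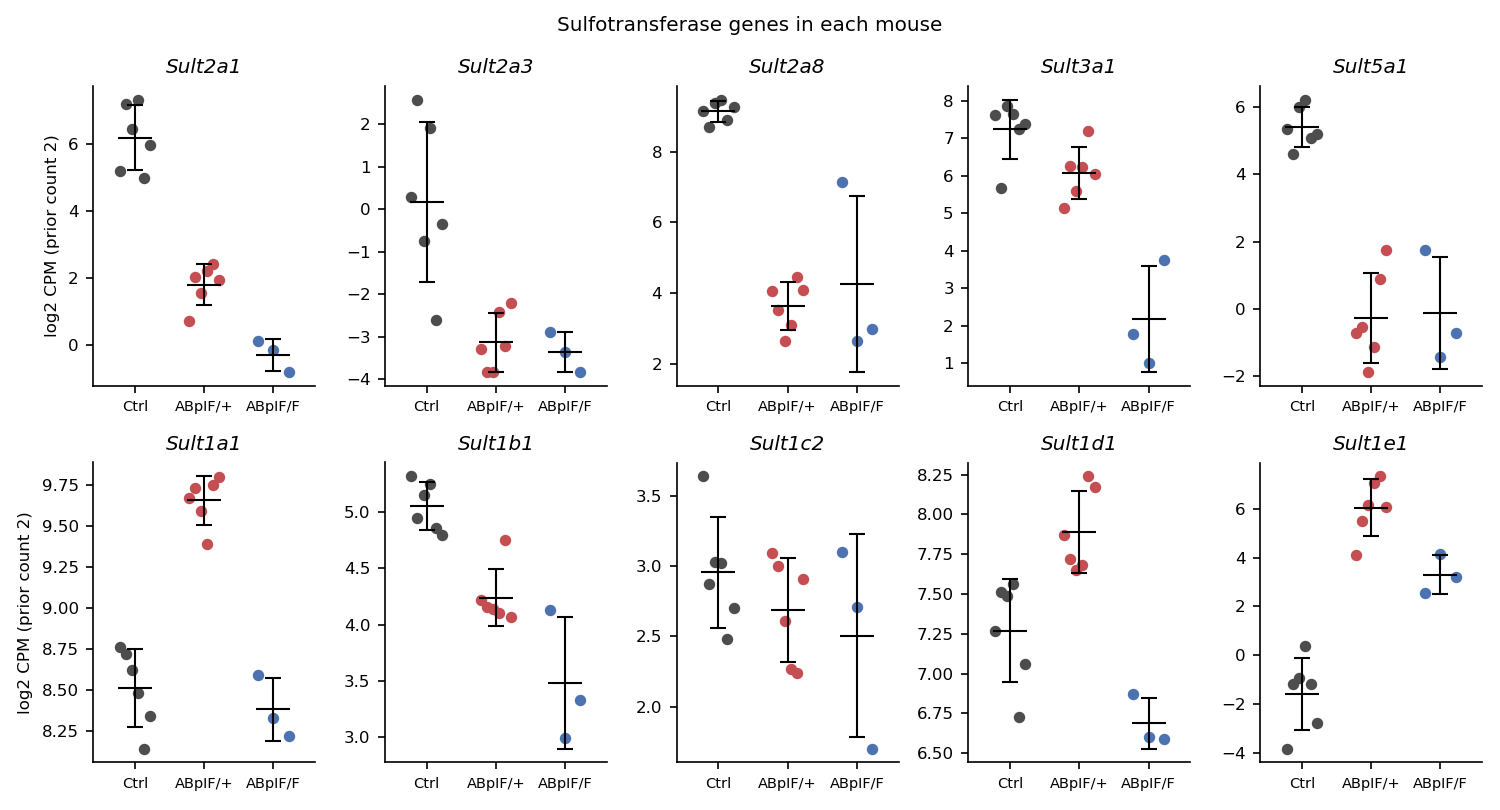
Expression of the 10 genes in each of the 15 mice as log2 CPM with a prior count of 2 (vertical axes, scaled separately for each gene), by group. Points are mice, and bars are the mean ± SD of the group. Sult2a1 and Sult2a8 of the ABpIF/+ mice lie below every Ctrl mouse, Sult1a1 and Sult1e1 above every Ctrl mouse, and mouse BG183 is the highest ABpIF/F point of Sult2a8 and Sult5a1.

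Of the hydroxysteroid and bile acid sulfotransferases, Sult2a8, which encodes a bile acid sulfotransferase, was called lower in ABpIF/+. Its level in Ctrl ran from 416 through a median of 594 to 714 CPM. In the ABpIF/+ mice it ran from 6.21 through 14.0 to 21.7 CPM. The 2 ranges did not overlap, and the log2 fold change was −5.41 ± 0.76 (SE, edgeR adjusted p = 0.000136). The 3 ABpIF/F mice had 6.20 CPM (BG38), 7.82 CPM (BG90) and 141 CPM (BG183). The first 2 lay within or below the ABpIF/+ range, and BG183 lay between the ABpIF/+ and the Ctrl mice. With this spread, the difference between ABpIF/F and Ctrl was not called (log2 fold change −3.48 ± 0.93, edgeR adjusted p = 0.0202), although no ABpIF/F mouse reached a Ctrl mouse. Without BG183 it was −6.36 and was called (edgeR adjusted p = 2.82e-07), and the log2 fold change of ABpIF/+ against ABpIF/F turned from −1.93 to 0.95, neither being called. Over the other settings tried, the adjusted p between ABpIF/F and Ctrl ranged from 6.54e-06 to 0.164.

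Sult2a1, the classical hydroxysteroid and bile acid sulfotransferase, had 31.9 to 161 CPM in Ctrl, with a median of 75.1. The ABpIF/+ mice had 1.57 to 5.24 CPM, with a median of 3.87. The ABpIF/F mice had 0.500 CPM (BG90), 0.831 CPM (BG38) and 1.01 CPM (BG183). The 3 groups formed 3 steps with no overlap between them. The log2 fold change was −4.58 ± 0.48 in ABpIF/+ (edgeR adjusted p = 8.05e-06) and −6.79 ± 0.75 in ABpIF/F (edgeR adjusted p = 3.12e-05). Both calls held when any 1 of the 15 mice was left out. The step between ABpIF/+ and ABpIF/F (log2 fold change 2.2 ± 0.67) missed the threshold (edgeR adjusted p = 0.0353), and over the other settings its adjusted p ranged from 0.000366 to 0.101. Sult2a1 and its neighbour Sult2a2 share 6.32% of the 150-base windows of the Sult2a1 transcript, so that some reads could belong to either gene.

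Sult2a3, also of this subfamily, was sparse and variable in Ctrl. The Ctrl mice had 0.0933 to 5.92 CPM, which came from 3 to 159 counts, with malpa387 the highest and malpa459 the lowest. The ABpIF/+ mice had 0 to 4 counts, and the ABpIF/F mice had 0, 1 and 2 counts (BG90, BG38 and BG183). The lowest Ctrl mouse therefore lay within the ABpIF/+ range and just above the ABpIF/F mice. Sult2a3 was called lower in ABpIF/+ (log2 fold change −5.10 ± 0.99, edgeR adjusted p = 0.000769). It was −4.40 without malpa387, and still called (edgeR adjusted p = 0.000505). In ABpIF/F every mouse had 3 counts or fewer, and the Ctrl mean was at least 21.0-fold higher than a level of 3 counts per library, a bound that covers counting error only. The call in ABpIF/F (edgeR adjusted p = 0.0070) was lost in 8 of the 15 fits that left out 1 mouse, namely BG3, malpa458, BG175, BG40, BG55, BG183, BG38 or BG90, with adjusted p-values of up to 0.0583. The fold change was −5.12 without malpa387 and −6.67 without BG183. With the strain label in the model neither call was made (edgeR adjusted p = 0.0712 and 0.0999, the ranges over the other settings being 3.41e-06 to 0.0712 and 0.000149 to 0.0999).

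The Sult2a genes lie side by side on chromosome 7 (GRCm38, GENCODE M21), where Sult2a1 spans 13796246 to 13837409, Sult2a3 spans 14067446 to 14123044 and Sult2a8 spans 14410686 to 14446769, all on the minus strand. The run of 8 genes from Sult2a5 to Sult2a7 covers 870264 bases. The other genes of this run had low counts, apart from Sult2a2. Sult2a2 had 123 ± 86.7 CPM in Ctrl, 19.0 ± 13.2 CPM in ABpIF/+ and 8.17 ± 4.46 CPM in ABpIF/F, and it was called lower in both comparisons with Ctrl (log2 fold changes −2.70 ± 0.63 and −3.91 ± 0.89, edgeR adjusted p = 0.00571 and 0.00819). Sult2a5, at 4.41 ± 4.42 CPM in Ctrl, was called lower in ABpIF/+ (log2 fold change −3.11 ± 0.77, edgeR adjusted p = 0.00705) and missed the threshold in ABpIF/F (edgeR adjusted p = 0.0313). Sult2a7 and Sult2a6 were not called in any comparison, and Sult2a4 had at most 3 counts in any mouse.

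The 250 bases before the transcription start of Sult2a3 (chr7:14123049-14123298, minus strand) and before the inner of the 2 starts of Sult2a8 (chr7:14438552-14438801, minus strand) are shown because these genes fell together in ABpIF/+. Sequences are from RefSeq on GRCm38.p6, run 5′ to 3′ along the gene, and capitals mark matches on either strand to the motif letters searched.
Sult2a3: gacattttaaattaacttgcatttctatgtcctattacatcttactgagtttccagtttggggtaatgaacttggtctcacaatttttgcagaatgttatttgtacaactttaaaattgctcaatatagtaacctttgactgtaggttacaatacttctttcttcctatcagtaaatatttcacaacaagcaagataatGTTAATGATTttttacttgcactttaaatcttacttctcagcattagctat
Sult2a8: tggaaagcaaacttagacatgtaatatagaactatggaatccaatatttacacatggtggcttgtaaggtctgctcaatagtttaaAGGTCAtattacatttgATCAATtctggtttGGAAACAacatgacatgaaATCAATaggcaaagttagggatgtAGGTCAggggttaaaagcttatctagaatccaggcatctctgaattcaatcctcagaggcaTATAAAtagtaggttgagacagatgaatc
The capitals of Sult2a3 are a match to the consensus site of the hepatocyte factor HNF1, which begins 51 bases before the start. Of all 32851 promoters of 300 bases (250 before to 50 after the start), 0.399% hold such a match. The Sult2a8 window holds 2 matches to the nuclear receptor letters AGGTCA (16.3% of all promoters hold at least 1), 2 to ATCAAT, the letters of HNF6 and CUX factors (7.54%), 1 to the forkhead letters TGTTTNC on the opposite strand (20.5%) and 1 to TATAAA (13.6%), 29 bases before the start. The window of the outer start of Sult2a8 (chr7:14446588-14446837), which is not shown, held fewer matches. These were 1 forkhead match and 1 TATAAA match, both on the opposite strand. Sult2a1 had no entry among these promoters. Letters alone do not show that a factor binds.

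**Figure D2:**
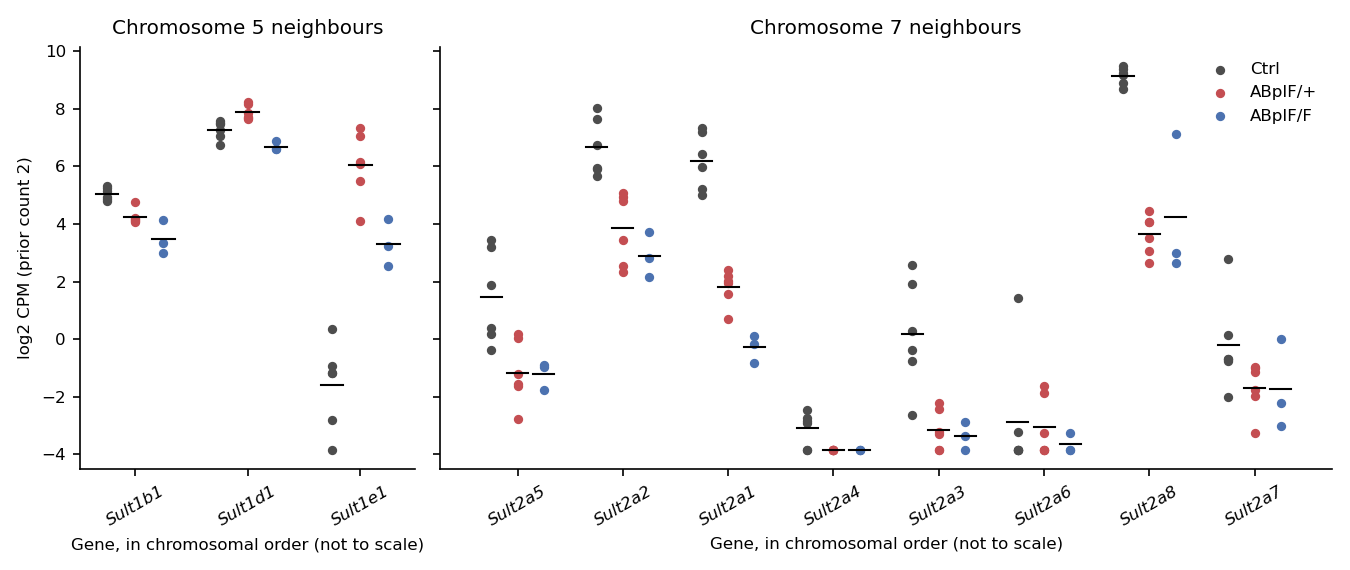
Log2 CPM with a prior count of 2 (vertical axis) of the neighbouring sulfotransferase genes of chromosomes 5 and 7, placed in chromosomal order and not to scale. Points are mice coloured by group, and black lines are group means. On chromosome 7, Sult2a2, Sult2a1 and Sult2a8 are the genes with high Ctrl levels, and on chromosome 5 Sult1e1 is higher in the ABpIF/+ mice than in every Ctrl mouse, while its neighbours moved by less.

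Sult3a1, which sulfates amines and is known as female-biased in mouse liver, separated ABpIF/F from both other groups. Ctrl mice had 51.4 to 232 CPM with a median of 182, and the lowest of them was malpa387. ABpIF/+ mice had 35.5 to 146 CPM with a median of 70.7. These ranges overlapped, and the difference was not called (log2 fold change −1.16 ± 0.49, edgeR adjusted p = 0.110). ABpIF/F mice had 1.94 CPM (BG38), 3.4 CPM (BG183) and 13.5 CPM (BG90), each below every mouse of the other groups. The log2 fold change was −4.75 ± 0.77 against Ctrl (edgeR adjusted p = 0.000743), and it was −5.98 without BG90. ABpIF/+ exceeded ABpIF/F by 3.59 ± 0.73 on the log2 scale (edgeR adjusted p = 0.00377). The call between ABpIF/+ and ABpIF/F was lost without BG183 or BG38 (edgeR adjusted p = 0.0198 and 0.0202), and the fold change was 4.82 without BG90. Adding the clock score to the model removed both calls (edgeR adjusted p = 0.0686 and 0.350, the ranges over the other settings being 1.02e-13 to 0.0686 and 6.63e-08 to 0.350). The part of the clock score in these differences was not tested beyond this fit, since all 3 ABpIF/F mice have low scores. Its paralog Sult3a2 had 6.47 ± 4.14 CPM in Ctrl, 9.10 ± 3.03 CPM in ABpIF/+ and 0.688 ± 0.846 CPM in ABpIF/F, and was not called (edgeR adjusted p = 0.0206 for ABpIF/F against Ctrl and 0.0101 for ABpIF/+ against ABpIF/F).

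Sult5a1 fell in both genotypes with BRAF V600E. Ctrl mice had 24.1 to 74.0 CPM with a median of 38.5, and malpa387 was again the lowest. ABpIF/+ mice had 0.202 to 3.32 CPM with a median of 0.579. ABpIF/F mice had 0.305 CPM (BG38), 0.536 CPM (BG90) and 3.26 CPM (BG183). Neither genotype overlapped with Ctrl, and they overlapped with each other. The log2 fold change was −5.31 ± 0.69 in ABpIF/+ (edgeR adjusted p = 7.04e-05), and −6.00 without BG88. In ABpIF/F it was −5.06 ± 0.92 (edgeR adjusted p = 0.00177), and it was −6.78 without BG183. The call in ABpIF/F was lost without BG38 or BG90 (edgeR adjusted p = 0.0117 and 0.0122) and with the clock score as a covariate (edgeR adjusted p = 0.0335) or the strain label as a covariate (edgeR adjusted p = 0.0156, the range over the other settings being 2.79e-08 to 0.0335). The 95% interval of the log2 difference between ABpIF/+ and ABpIF/F ran from −1.95 to 1.44.

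Sult1e1, the estrogen sulfotransferase, had the largest log2 fold change of the 10 genes in ABpIF/+ against Ctrl. The Ctrl mice had 0 to 1.22 CPM with a median of 0.373, from 0 to 38 counts. The ABpIF/+ mice had 17.1 to 163 CPM with a median of 69.2. The ABpIF/F mice had 5.74 CPM (BG183), 9.25 CPM (BG90) and 17.8 CPM (BG38). Every mouse of both genotypes exceeded every Ctrl mouse, and BG38 overlapped with the lowest ABpIF/+ mouse. The log2 fold change was 7.57 ± 0.78 in ABpIF/+ (edgeR adjusted p = 8.2e-06), a 189-fold difference, and 4.64 ± 0.80 in ABpIF/F (edgeR adjusted p = 0.00112). Without the Ctrl mouse malpa458 these log2 fold changes were 8.27 and 5.35. The difference between the 2 genotypes, 2.92 ± 0.77, was not called (edgeR adjusted p = 0.0178), and over the other settings its adjusted p ranged from 0.00156 to 0.649. With the strain label in the model the differences from Ctrl missed the threshold (edgeR adjusted p = 0.0101 in ABpIF/+ and 0.0569 in ABpIF/F), and with the clock score that of ABpIF/F did (edgeR adjusted p = 0.123), where the ranges over the other settings were 5.17e-24 to 0.0101 and 1.37e-06 to 0.123. For the difference between the genotypes, leaving out BG175 made it a call (log2 fold change 3.19, edgeR adjusted p = 0.00584).

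Sult1b1, Sult1d1 and Sult1e1 are neighbours on chromosome 5, all on the minus strand, with Sult1b1 at 87513339 to 87538195, Sult1d1 at 87554645 to 87569027 and Sult1e1 at 87575969 to 87591594. The gap between Sult1d1 and Sult1e1 is 6941 bases and that between Sult1b1 and Sult1d1 is 16449 bases. Sult1d1, which sulfates catecholamines, had 106 to 188 CPM in Ctrl with a median of 167. It had 201 to 301 CPM in ABpIF/+ with a median of 222, above every Ctrl mouse. The difference was under 2-fold and so not called (log2 fold change 0.61 ± 0.15, edgeR adjusted p = 0.0032). The ABpIF/F mice had 96.4 CPM (BG90), 97.2 CPM (BG38) and 117 CPM (BG183). BG90 and BG38 lay below every Ctrl mouse, and BG183 lay within the Ctrl range. The difference between ABpIF/F and Ctrl was not called (log2 fold change −0.60 ± 0.19, edgeR adjusted p = 0.0267). ABpIF/+ exceeded ABpIF/F by 1.21 ± 0.19 on the log2 scale with no overlap (edgeR adjusted p = 0.000126). The call was lost only with the clock score as a covariate (log2 fold change 1.38, edgeR adjusted p = 0.0172, the range over the other settings being 1.67e-08 to 0.0172) and at a 4-fold threshold.

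Sult1b1, a sulfotransferase of phenols and thyroid hormones, moved the other way from Sult1d1 in ABpIF/+ against Ctrl. It had 27.9 to 40.0 CPM in Ctrl with a median of 33.1. It had 16.7 to 26.8 CPM in ABpIF/+ with a median of 17.7, and BG55 was the highest. The 2 ranges did not overlap, but the difference was under 2-fold (log2 fold change −0.81 ± 0.16, edgeR adjusted p = 0.000685). In ABpIF/F it had 7.87 CPM (BG38), 9.97 CPM (BG90) and 17.4 CPM (BG183), all below Ctrl, and was called lower (log2 fold change −1.51 ± 0.22, edgeR adjusted p = 3.02e-05). With the clock score as a covariate this was −1.28 and not called (edgeR adjusted p = 0.0108, the range over the other settings being 5.72e-10 to 0.0108). ABpIF/+ and ABpIF/F differed by 0.70 ± 0.21 (edgeR adjusted p = 0.0212), which became a call without BG183 (log2 fold change 1.10, edgeR adjusted p = 0.000495).

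The bases before the starts of the 3 neighbours are shown because 1 rose by over 100-fold where the next one changed by less than 2-fold. The windows are chr5:87538196-87538445 for the outer start of Sult1b1, chr5:87569007-87569256 for Sult1d1 and chr5:87591612-87591861 for Sult1e1, with the same build, source, direction and capitals as above.
Sult1b1: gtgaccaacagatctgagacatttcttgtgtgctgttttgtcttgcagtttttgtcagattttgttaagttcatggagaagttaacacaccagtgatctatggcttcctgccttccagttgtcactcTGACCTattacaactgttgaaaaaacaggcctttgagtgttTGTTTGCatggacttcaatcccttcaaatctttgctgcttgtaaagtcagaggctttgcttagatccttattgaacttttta
Sult1d1: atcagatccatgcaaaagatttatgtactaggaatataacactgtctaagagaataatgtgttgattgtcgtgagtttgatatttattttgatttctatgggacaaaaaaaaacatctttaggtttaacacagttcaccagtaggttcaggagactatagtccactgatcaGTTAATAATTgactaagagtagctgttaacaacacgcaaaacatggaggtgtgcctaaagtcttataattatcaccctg
Sult1e1: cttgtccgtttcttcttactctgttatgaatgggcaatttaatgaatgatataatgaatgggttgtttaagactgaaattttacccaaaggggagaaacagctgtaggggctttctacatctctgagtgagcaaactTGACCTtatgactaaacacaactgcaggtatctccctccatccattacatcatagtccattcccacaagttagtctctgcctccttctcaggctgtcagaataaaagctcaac
Within the bases shown, Sult1e1 has 1 match, to AGGTCA on the opposite strand, 113 bases before the start. Sult1b1 has a match to the same letters on the opposite strand 123 bases before its start and a forkhead match 82 bases before it. The window of the inner start of Sult1b1 (chr5:87536223-87536472), which is not shown, held no match. Sult1d1 has the HNF1 match, 79 bases before the start. The HNF1 letters were thus found in the windows of Sult2a3, which fell in ABpIF/+, and of Sult1d1, which did not, and in no other member with a promoter entry. None of the 11 member promoters, which belong to 9 of the genes, held the C/EBP letters TTGCGNAA (0.798% of all promoters), and 1, that of Sult3a1, held the STAT letters TTCNNNGAA (8.3%).

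Sult1a1 encodes the main phenol sulfotransferase. Ctrl mice had 282 to 434 CPM with a median of 375. ABpIF/+ mice had 670 to 890 CPM with a median of 831, all above Ctrl (log2 fold change 1.14 ± 0.13, edgeR adjusted p = 8.67e-07). ABpIF/F mice had 298 CPM (BG90), 322 CPM (BG38) and 384 CPM (BG183), all within the Ctrl range. The 95% interval of the log2 difference between ABpIF/F and Ctrl ran from −0.46 to 0.18. ABpIF/+ exceeded ABpIF/F by 1.27 ± 0.17 (edgeR adjusted p = 2.52e-05). Both calls held when any 1 mouse was left out. With the strain label as a covariate the difference between ABpIF/+ and Ctrl was 0.90 and not called (edgeR adjusted p = 0.0244, the range over the other settings being 5e-19 to 0.0244), in a fit where BG3, at 434 CPM, is the lone Ctrl mouse with the strain label of the ABpIF/+ mice. In the annotation, 61 exonic bases (4.0%) of Sult1a1 overlap Sgf29 on the opposite strand.

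Sult1c2, another phenol sulfotransferase, was not called in any of the 3 comparisons. It had 5.50 to 12.4 CPM in Ctrl, 4.64 to 8.44 CPM in ABpIF/+ and 3.18 CPM (BG90), 6.48 CPM (BG38) and 8.48 CPM (BG183) in ABpIF/F. The 3 groups overlapped. The 95% intervals of the log2 differences from Ctrl were −0.73 to 0.17 in ABpIF/+ and −0.95 to 0.16 in ABpIF/F, so that a decrease of just under 2-fold in ABpIF/F is not outside the interval.

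**Figure D3:**
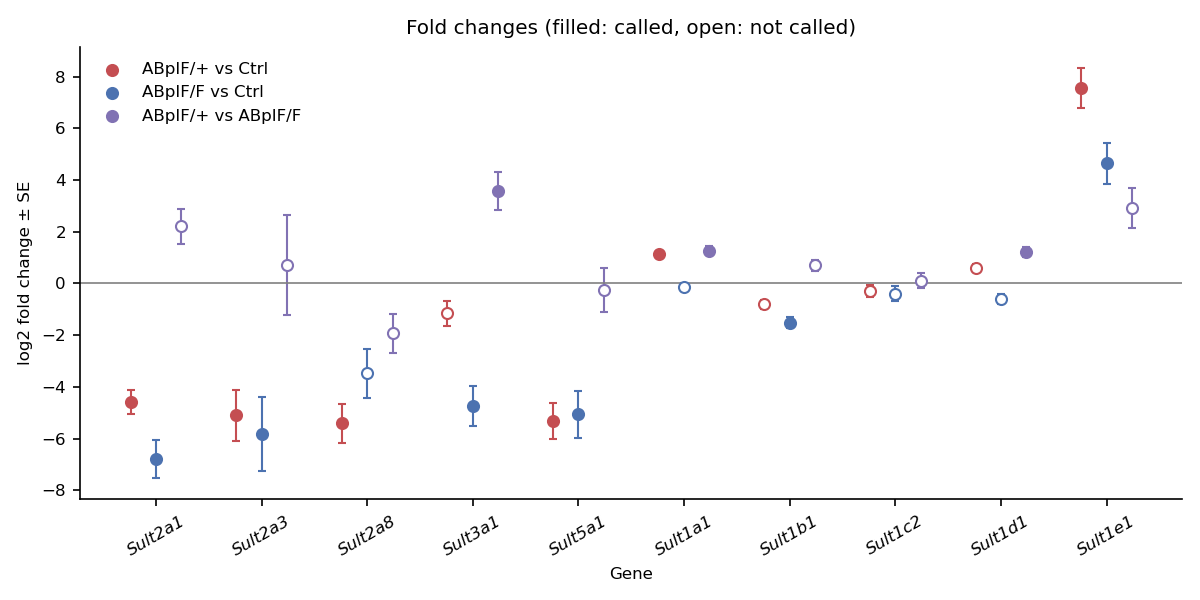
Log2 fold changes ± SE (vertical axis) of the 10 genes in the 3 comparisons. Filled points were called and open points were not. Sult2a1 and Sult5a1 lie far below 0 in both comparisons with Ctrl, Sult1e1 lies above 4 in both, and Sult1a1, Sult1d1 and Sult3a1 are the filled points of ABpIF/+ against ABpIF/F.

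Levels of different genes can be compared only per length, and for this CPM were divided by the kilobases of exons of each gene. In Ctrl, the 10 genes together had 743 ± 125 CPM per kilobase. Sult1a1 made up 33.2% ± 5.05 of this sum, Sult2a8 23.7% ± 3.1, Sult3a1 19.3% ± 6.52, Sult2a1 11.3% ± 6.47 and Sult1d1 8.59% ± 1.06. Sult1a1 was above Sult2a8, and Sult2a8 above Sult3a1, in each of the 6 Ctrl mice, although the ranges of each of these neighbours over mice overlapped. Sult2a8 has 3284 bases over all its exons but 2143 in its longest coding transcript, against 1507 and 1370 for Sult1a1. The shares and the order of Sult2a8 with Sult1a1 therefore depend on the length used. In the ABpIF/+ mice the sum was 785 ± 108 CPM per kilobase. Sult1a1 made up 69.0% ± 7.18, Sult1d1 12.4% ± 1.18, Sult1e1 8.3% ± 5.07 and Sult3a1 7.96% ± 2.97, and each of the other 6 genes, Sult2a1 and Sult2a8 among them, made up less than 1%. In the ABpIF/F mice the sum was 303 ± 54.9 CPM per kilobase, from 264 to 366, below every mouse of the other groups (558 to 977). There Sult1a1 made up 73.8% ± 3.62, Sult1d1 14.0% ± 0.918, Sult2a8 4.43% ± 6.3 and Sult1e1 3.07% ± 1.95. The Sult2a8 share was 11.7% in BG183 and 0.679% in the ABpIF/F mouse where it was lowest. Sult1e1 was at rank 10 in Ctrl and at rank 3 in ABpIF/+, where its order with Sult3a1 was not fixed, each being higher in 3 of 6 mice. These sums and shares are descriptions, with no test. They leave out Sult2a2, which had 166 ± 117 CPM per kilobase in Ctrl, 25.6 ± 17.8 in ABpIF/+ and 11 ± 6.01 in ABpIF/F. Its drop from Ctrl to ABpIF/+ exceeded the gap between the sums of these groups, so their order holds for the 10 genes only.

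**Figure D4:**
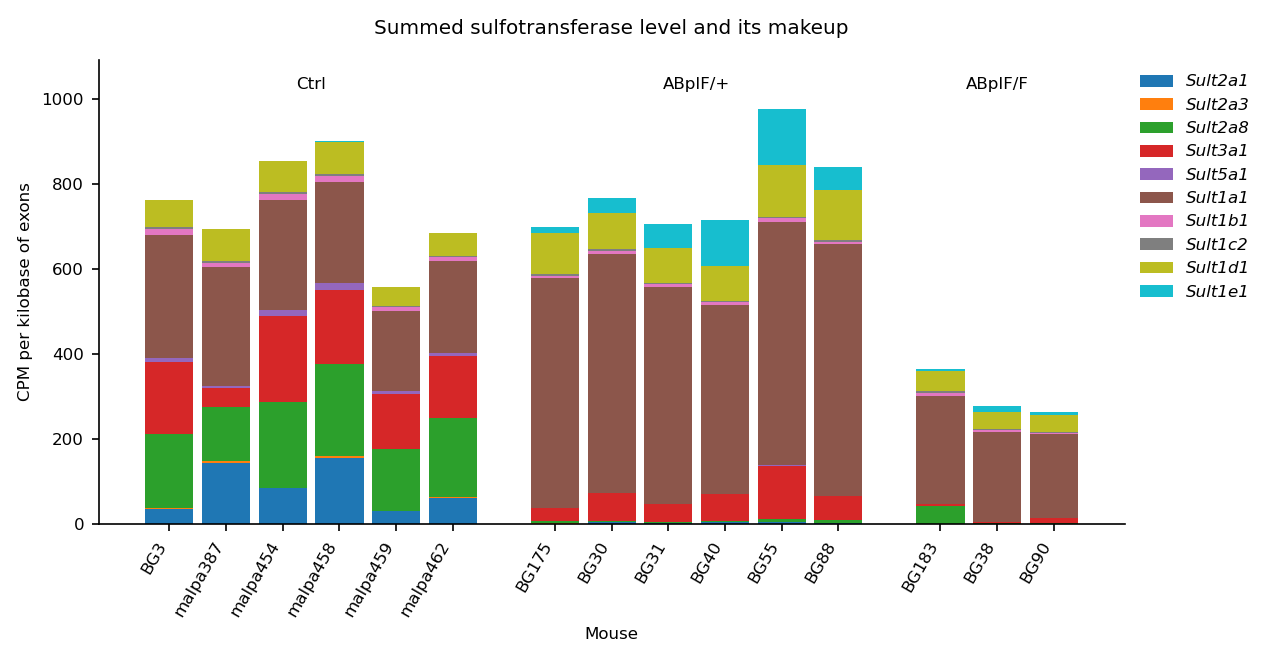
Summed level of the 10 genes in each mouse, in CPM per kilobase of exons (vertical axis), with 1 bar per mouse and 1 colour per gene. Sult2a2 is not among them. The bars of the Ctrl mice hold Sult2a1, Sult2a8 and Sult3a1 beside Sult1a1, those of the ABpIF/+ mice are mostly Sult1a1, and the ABpIF/F bars are the lowest, at 264 to 366.

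Of the other 11 Sult genes, 3 were called in ABpIF/+ against Ctrl and 2 in ABpIF/F against Ctrl. Besides Sult2a2 and Sult2a5, this was Sult2b1, a cholesterol sulfotransferase, which had at most 2 counts in any Ctrl mouse, 1 to 19 counts in ABpIF/+ and 16 to 33 counts in ABpIF/F. Against a level of 3 counts per library it was at least 2.37-fold higher in ABpIF/+ and at least 6.56-fold higher in ABpIF/F (edgeR adjusted p = 0.0045 and 0.000284). Sult1c1 had no counts in any mouse, and Sult4a1, Sult6b1 and Sult6b2 were not called.

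The donor side of the reaction was read from 15 genes of PAPS and sulfate supply, of which 6 were lower and 1 was higher in ABpIF/+ and 5 were lower in ABpIF/F. Papss2, the main PAPS synthase of liver, had 487 ± 123 CPM in Ctrl, 199 ± 34 CPM in ABpIF/+ and 131 ± 48 CPM in ABpIF/F (log2 fold changes −1.29 ± 0.18 and −1.90 ± 0.24, edgeR adjusted p = 9.82e-06 and 6.26e-06). Papss1, the second PAPS synthase, had 12.1 ± 2.06, 9.84 ± 1.66 and 15.8 ± 3.32 CPM in the same order and was not called. Slc26a1, a sulfate transporter, fell from 228 ± 57.2 CPM to 67.0 ± 7.5 and 86.9 ± 40.3 CPM. Suox, the sulfite oxidase that makes sulfate, fell from 134 ± 20.9 CPM to 38.1 ± 3.35 and 41.1 ± 15.7 CPM. Ethe1, which oxidizes sulfide, was called lower in ABpIF/+ (log2 fold change −2.02 ± 0.36, edgeR adjusted p = 0.000831) and Tst, a sulfurtransferase, in both genotypes (−1.13 ± 0.17 and −1.14 ± 0.21, edgeR adjusted p = 1.54e-05 and 0.000429). The median log2 fold change of the list was −0.39 in ABpIF/+ and −0.78 in ABpIF/F. Between ABpIF/+ and ABpIF/F 1 of the 15 genes was called, higher in ABpIF/+. It was Slc13a1, also the gene called higher in ABpIF/+ against Ctrl. Slc13a1 had 0.254 ± 0.115 CPM in ABpIF/+ and 0 CPM in every Ctrl and ABpIF/F mouse. Against a level of 3 counts per library this was at least 2.38-fold over Ctrl and 2.65-fold over ABpIF/F. Slc13a4, called lower in both genotypes, had a Ctrl mean of 0.633 CPM. Both genes are named for their low levels. On the removal side, of 12 genes for sulfatases and their activators, Arsg and Galns were higher in ABpIF/+ (log2 fold changes 1.25 ± 0.16 and 1.42 ± 0.15) and Arsg in ABpIF/F (1.95 ± 0.18).

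Of 25 genes for receptors and transcription regulators known to act on sulfotransferase genes or on the sex difference of the liver, 2 were lower in ABpIF/+ and 5 were lower in ABpIF/F. Ghr, the growth hormone receptor, fell from 527 ± 61.7 CPM to 186 ± 28.7 CPM in ABpIF/+ and 142 ± 57.6 CPM in ABpIF/F. Cux2, a repressor of male-biased genes, was at 56.9 ± 20.4 CPM in Ctrl, 92.4 ± 17.0 CPM in ABpIF/+ and 10.8 ± 4.4 CPM in ABpIF/F. Nr1i3, the receptor CAR, and Ppara were lower in ABpIF/F (log2 fold changes −1.64 ± 0.25 and −1.66 ± 0.28), and Esr1, the estrogen receptor, in ABpIF/+ (−1.90 ± 0.45). Of 12 genes known as female-biased in liver, Cux2 among them, 4 were lower and 1 was higher in ABpIF/+, and 7 were lower and 1 was higher in ABpIF/F. Of 12 known as male-biased, 7 were lower and 2 were higher in ABpIF/+, and 4 were lower and 2 were higher in ABpIF/F. Between ABpIF/+ and ABpIF/F, 4 of the 25 regulators and 5 of the 12 female-biased genes were higher in ABpIF/+, and 3 of the 12 male-biased genes were lower there. The summed level of the male-biased genes went against the count of its members, at 258 to 2815 CPM in Ctrl, 4205 to 8802 CPM in ABpIF/+ and 4461 to 7587 CPM in ABpIF/F, and that of the female-biased genes was 2647 to 6223, 3828 to 5642 and 1459 to 2444 CPM. Most of the male-biased sum was 1 gene, Serpina1e, named for this after its values were seen, at 719 ± 824 CPM in Ctrl, 5347 ± 1650 CPM in ABpIF/+ and 5829 ± 1484 CPM in ABpIF/F.

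As a description over the 15 mice, which share their 3 groups, the genes most like each member in log2 CPM were searched among the 12316 genes averaging 1 CPM or more. Ces3b (r = 0.988) and Cat (r = 0.982) were closest to Sult2a8, Rmdn2 (r = 0.956) and Rdh16 (r = 0.949) to Sult2a1, and Aspa (r = 0.985) and Mto1 (r = 0.977) to Sult5a1. Nsun2 (r = 0.961) and Naa60 (r = 0.944) were closest to Sult3a1, and Kxd1 (r = 0.980) and Hsf4 (r = 0.979) to Sult1a1. Sult1e1 was closest to Il20rb (r = 0.965) and to the oncofetal gene Gpc3 (r = 0.962), which had 0.814 CPM in Ctrl, 372 CPM in ABpIF/+ and 131 CPM in ABpIF/F. Sult1b1 was close to Atg3 (r = 0.970), Sult1d1 was closest to Nudt6 (r = 0.956) and Mxi1 (r = 0.945), and Sult1c2, with the weakest likeness, to Stradb (r = 0.816) and Lrrc40 (r = 0.779). Sult2a3 averages under 1 CPM and was not searched, and none of the other 9 members was among the 2 genes closest to another of them.

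In pieces of liver, fewer cells of a type and less RNA per cell cannot be told apart. The summed level of 12 hepatocyte markers ran from 129157 to 166094 CPM in Ctrl, from 229463 to 306117 CPM in ABpIF/+ and from 170766 to 268791 CPM in ABpIF/F. Most of this sum was Alb, Trf and Apoa1. Of the 12, 3 were higher and 1 was lower in ABpIF/+, and 3 were higher and 5 were lower in ABpIF/F, with median log2 fold changes of 0.29 and −0.67. The sum of 8 cholangiocyte markers ran from 49.9 to 89.2 CPM in Ctrl, 56.2 to 180 CPM in ABpIF/+ and 245 to 1257 CPM in ABpIF/F, with 6 of 8 called higher in ABpIF/F. The sum of 8 stellate cell markers ran from 207 to 275 CPM in Ctrl, 58.7 to 125 CPM in ABpIF/+ and 231 to 367 CPM in ABpIF/F, and 6 of 8 were lower in ABpIF/+. The macrophage sums were 317 to 443, 131 to 228 and 264 to 586 CPM, the lymphocyte sums 3.71 to 5.95, 0.927 to 2.81 and 5.07 to 13.9 CPM, and the endothelial sums 209 to 308, 96.0 to 220 and 237 to 332 CPM, in the same order of groups. In ABpIF/+, 4 of 8 macrophage, 2 of 8 lymphocyte and 2 of 8 endothelial markers were lower, and in ABpIF/F 1 each of the lymphocyte, endothelial and stellate markers was higher. The part of these cell types in the sulfotransferase levels was not tested. Of the markers of other organs, 5 of 6 kidney markers, 4 of 6 adipose markers (Adipoq, Plin1, Lep, Retn), 3 of 6 pancreas markers (Prss2, Cpa1, Try4) and 2 of 6 intestine and stomach markers (Cdx2, Gkn1) were at 3 counts or fewer in every mouse. The remaining markers of these lists had reads. Fabp2 was at 51.6 ± 6.86 CPM in Ctrl, 15.2 ± 5.72 CPM in ABpIF/+ and 14.0 ± 4.51 CPM in ABpIF/F, and was called lower in both genotypes. Cela1 was at 18.8 ± 5.49, 11.8 ± 1.97 and 23.7 ± 4.53 CPM and Tff1 at 5.09 ± 1.49, 4.87 ± 1.41 and 4.17 ± 2.71 CPM. The kidney marker Slc12a3 was called higher in ABpIF/+, at 0.462 ± 0.247 CPM against 0.042 ± 0.042 CPM in Ctrl. These genes are named because their values stood out from the rest of their lists.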

How the data were processed

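Per the labels and the study's methods, total RNA from frozen livers was made into stranded mRNA libraries with paired reads, which the authors aligned to mm10 with HISAT2 and counted with featureCounts 2.0.8. The gene annotation and the strand setting are not given in the sources used here. Raw counts for 27179 genes, with 1 column per mouse, are the deposited values. The series lists 23 samples, 8 mice being named by 2 and 7 by 1. A second deposited table, also with the authors' own edgeR comparisons (not used), gave the gene symbols. Its 10 columns compared hold the same counts, and its 5 columns headed by a bare number were not used. At least 1 read fell on 20380 genes, and 1319 lack a symbol.

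The fit used edgeR 4.0.16 (R 4.3.3) with TMM scaling, robust dispersions and 1 quasi-likelihood model (legacy form) with 3 groups over all genes. Alternatives included DESeq2 1.42.0. Log2 CPM used a prior count of 2, floors used 3 counts and cover counting error only. The fit was tested on simulated data. Mice of a group differed by more than sampling noise (lowest chi-square per degree of freedom 19.1), so none was counted as a duplicate. Exon lengths and positions came from GENCODE M21 on GRCm38, and promoters from RefSeq (GRCm38.p6), which held 9 of the 10 genes. Named genes were all Sult genes, Papss1, Papss2 and, of each context list, up to 4 called genes of at least 1 CPM with the largest change. The genes nearest in pattern were the 2 with the highest Pearson r. The members and lists were chosen with earlier results of these data known. Some genes that these rules would name are not reported here.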

Additional observations from a re-analysis of the deposited data

Results flagged for a closer look

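Of the 20 sets of 6 mice examined for the 10 genes (Ctrl and ABpIF/+), 1 held a mouse far from the others. Sult1b1 was at 26.8 CPM in mouse BG55 of the ABpIF/+ group, whose median was 17.7 CPM, and its gap to the next mouse exceeded Dixon's 95% limit. Chance alone picks about 1 in 20 such sets. The same mouse was the highest of its group for Sult2a1, Sult2a8, Sult3a1, Sult1d1 and Sult1e1.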

How the results depend on the processing

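Of 780 values of single genes under other settings, 729 kept their direction and their side of the threshold, 30 were no longer called, 17 became calls and 4 changed sign. Part of this agreement was fixed in advance. Settings that changed only a threshold kept the fold changes of the main fit. Some omitted mice belonged to neither of the groups compared. The sign changes all concern ABpIF/+ against ABpIF/F and values not called: without BG183, Sult2a8 at 0.95 and Sult5a1 at 1.46, without BG90 Sult1c2 at −0.19, and with the clock score as a covariate Sult1c2 at −0.15. The count of called genes was 3 instead of 6 for both comparisons with Ctrl when the strain label was a covariate. With the clock score as a covariate it was 2 instead of 6 for ABpIF/F against Ctrl and 1 instead of 3 for ABpIF/+ against ABpIF/F. For that last comparison it was 5 with DESeq2, with no robust estimation and at an adjusted p under 0.05, and 1 where a 4-fold change was required. The cause was not tested. Over the omission of each mouse, these log2 fold changes ran from −2.46 to 0.95 for Sult2a8, from −0.93 to 1.46 for Sult5a1 and from −0.19 to 0.43 for Sult1c2. Leaving out each mouse in turn gave 6 to 6, 4 to 6 and 2 to 4 called genes in the 3 comparisons. The fit of the second deposited table was not run, since the columns compared hold the same counts. No paired analysis was possible because the labels give no number shared between mice of different groups. With 3 ABpIF/F mice and few counts on Sult2a3 in them, changes of that gene between the genotypes were not detectable at this depth.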
